A study of Rattus norvegicus with 6 samples.

Results

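The let-7 guide strands and miR-98-5p were examined in rat brain small RNA libraries as 8 rows of the deposited miRNA counts, chosen by name: rno-let-7a-5p, rno-let-7b-5p, rno-let-7c-5p, rno-let-7d-5p, rno-let-7e-5p, rno-let-7f-5p, rno-let-7i-5p and rno-miR-98-5p, written below without the species prefix. They are 8 of the 775 miRNAs listed, and all 8 were among the 454 miRNAs with at least 10 counts in total that were tested. The 2VO group (3 libraries) came from rats with both common carotid arteries ligated, the 2-vessel occlusion model of vascular dementia, which were given 0.5% CMC-Na vehicle at 5 mL/kg. The tilianin group (3 libraries) came from 2VO rats given the flavonoid glycoside tilianin daily at 40 mg/kg in the same vehicle, by gastric tube over 4 weeks. All rats of the study were male Sprague-Dawley rats that were 7 weeks old when purchased. Both groups carry the occlusion, and sham libraries were not analysed here. The labels give the tissue as brain, whereas a legend of the study gives cortex. Whether each library is 1 rat is not stated, so the p-values set the groups against a spread between libraries that may be technical.

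let-7 miRNAs are among the most conserved small RNAs of animals. The guide strand is loaded into Argonaute and pairs with messenger RNAs mainly through its seed, and known targets include LIN28, HMGA2 and RAS messages. LIN28 in turn blocks the maturation of let-7 precursors in stem cells, and let-7 accumulates as neurons differentiate, so that the adult brain is rich in it. Some members have also been linked to microglial and neuronal Toll-like receptor signaling and to injury after stroke.

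The guide sequences are shown because the members differ at so few bases that a counted read can be assigned to a neighbour. In the RefSeq sequences (build GRCr8) all 8 members, and let-7g-5p beside them, are 22 bases long and share the seed, bases 2 to 8, which is in capitals.
let-7a-5p: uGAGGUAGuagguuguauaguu
let-7b-5p: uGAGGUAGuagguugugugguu
let-7c-5p: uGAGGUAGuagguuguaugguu
let-7d-5p: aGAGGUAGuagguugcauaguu
let-7e-5p: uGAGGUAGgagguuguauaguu
let-7f-5p: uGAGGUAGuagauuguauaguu
let-7i-5p: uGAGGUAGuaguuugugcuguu
miR-98-5p: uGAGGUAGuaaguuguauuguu
let-7g-5p: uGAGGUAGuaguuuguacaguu

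The 8 members have the same base at 14 of the 22 positions. Counted from 1 at the 5′ end and with the base of let-7a-5p given before the position, let-7c-5p differs by A19G, let-7e-5p by U9G and let-7f-5p by G12A alone. let-7b-5p carries A17G and A19G, let-7d-5p carries U1A and U16C, and miR-98-5p carries G11A and A19U. The most distant from let-7a-5p is let-7i-5p, with G12U, A17G, U18C and A19U. Of the 28 pairs of members, 4 differ by 1 base and 7 by 2 bases. These 4 pairs are let-7a-5p with let-7c-5p, let-7e-5p and let-7f-5p, and let-7b-5p with let-7c-5p. Counts within such pairs are uncertain, since the counting rule for near-identical reads is not given in the sources used here. No member had the same counts as another row in all 6 libraries.

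In the RefSeq table, let-7g-5p is the only other mature rat miRNA with this seed. It is not among the 8 members, but it was the most abundant guide strand with the seed, so its values are given beside theirs.

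The 8 members come from 11 hairpin genes, and their mature positions in GRCr8 group them as follows. On chromosome 17, let-7a-1 (chr17:16320145-16320166), let-7f-1 (listed by RefSeq as Mirlet7f-1os, chr17:16320508-16320529) and let-7d (chr17:16322273-16322294) lie together on the plus strand, within the span of the lncRNA gene LOC120097935. On chromosome X, let-7f-2 (chrX:24460052-24460073) and miR-98 (chrX:24460663-24460684) lie on the plus strand within the span of Huwe1, a ubiquitin ligase gene. On chromosome 7, let-7c-2 (chr7:118683636-118683657) and let-7b (chr7:118684044-118684065) are neighbours on the plus strand, and let-7i (chr7:60527935-60527956, minus strand) has no other miRNA gene within 10 kb and lies within the span of LOC134479799. The remaining loci, all on the plus strand, are beside genes of the miR-99/100 family. They are let-7a-2 (chr8:50805219-50805240) beside miR-100 and within the span of Mir100hgl, let-7c-1 (chr11:29688127-29688148) beside miR-99a and within the span of the lncRNA gene LOC103693508, and let-7e (chr1:67350243-67350264) between miR-99b and miR-125a, within the span of Spaca6. Exons and introns of these spanning genes were not used here. let-7a-5p, let-7c-5p and let-7f-5p each have a pair of genes with the same mature sequence, so their counts cannot be divided between loci. Because LIN28 is known to bind precursors at GGAG, this motif was searched on the RNA strand of the hairpins. It occurred in 9 of the 11 let-7 and miR-98 hairpins with a sequence in the table (let-7g included, let-7b named only), and in 41.1% of all 419 rat hairpins there. The hairpins without it were let-7c-2 and miR-98. The guide strand of let-7e itself holds the motif, at the base that sets it apart (U9G). Only the first match in each hairpin was recorded, at base 22 in let-7e, so whether its hairpin has a match outside the guide is not given. These matches are a description of the letters and were not related to the counts.

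Total counts per library lay between 7175872 and 13198776, and the members were counted from 3142 to 159586 times per library. At the lowest count of each member, counting error alone was between 0.352% and 1.78%. The coefficient of variation between libraries of a group was above this for every member in both groups, except for let-7e-5p in the 2VO group. There it was 1.29%, beside a counting error of 1.37% at the lowest count of let-7e-5p, 5329 in tilianin replicate 2. The 2VO libraries had 7344 to 11999 counts of it and so a smaller counting error, hence the 1.29% is not shown to be below that error. These values cover counting error only, since no molecular identifiers are mentioned. Tilianin replicate 2 stood apart from the rest, where Spearman's rho over the tested miRNAs was 0.936 to 0.957 with each of the rest and 0.983 to 0.992 among the other 5. In that library the summed Hox cluster miRNAs were at 21658 CPM (CPM, the count of a miRNA relative to the TMM-scaled library total), against 89.8 to 149 CPM in the 2VO libraries. The lowest tilianin library had 321 CPM of them, also above every 2VO library. The summed choroid plexus list was at 1074 CPM there, against 120 to 151 CPM in the 2VO libraries. Of this sum, miR-204-5p was 1064 CPM, and miR-34b-5p and miR-34c-5p had 0 counts in every library. On the same list, miR-449a-5p was at 0.924 CPM there, within its 2VO range of 0.647 to 2.78 CPM. Its log2 fold change of tilianin over 2VO was -0.59. The summed neuronal list was at 84385 CPM there, against 127882 to 161164 CPM. Of the oligodendrocyte list, miR-219a-5p had at most 1 count and miR-219a-2-3p at most 6 counts in any library, whereas miR-338-3p had 141 to 450 counts and was highest in tilianin replicate 2, at 49.4 CPM. For the marker lists, the criterion used below was passed by 2 of 3 tested choroid plexus and 1 of 2 erythroid miRNAs. It was also passed by 1 of 4 myeloid and 2 of 3 Hox cluster miRNAs, and all of these were higher with tilianin. Of the other lists, 0 of 6 neuronal, 0 of 2 oligodendrocyte and 0 of 2 endothelial miRNAs passed. Over all 454 tested miRNAs, 5.73% passed, with 4.63% higher and 1.10% lower in the tilianin group. The erythroid miRNA that passed was miR-486, whereas miR-144-3p had at most 23 counts, miR-451-5p 4 and miR-144-5p 1 in any library. Among the myeloid miRNAs, miR-223-3p passed, at most at 24.5 CPM. Its list mates miR-142-3p and miR-142-5p had log2 fold changes of 0.98 and 0.54, and the far more abundant miR-146b-5p had -0.23. The summed myeloid list was at 5923 to 8902 CPM with tilianin and at 7437 to 10571 CPM in the 2VO libraries, and was lowest in tilianin replicate 2. The part of the marker miRNAs in the let-7 values was not tested. Fewer cells of a type cannot be told apart from less miRNA per cell in whole tissue.

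The family as a whole held a similar part of the miRNA counts in both groups. The 8 members together reached 36021, 33942 and 28877 CPM in 2VO replicates 1, 2 and 3. In tilianin replicates 1, 2 and 3 they reached 35883, 37437 and 29810 CPM. The groups overlapped, and 2VO replicate 3 and tilianin replicate 3 were the lowest libraries. The sum averaged 32946 ± 3675 CPM without and 34377 ± 4030 CPM with tilianin (SD, n = 3 each). The difference of mean log2 CPM was 0.06, but -0.0068 when libraries were scaled by their totals alone and -0.04 without 2VO replicate 3, so that its sign depended on the scaling and on 1 library. As a share of all counts, the members held 3.37 ± 0.391% in the 2VO group and 3.35 ± 0.171% in the tilianin group (SD, n = 3 each). With let-7g-5p added, the family held 5.64 ± 0.614% and 5.60 ± 0.347%. No p-value is given for these sums, because the members were chosen with earlier results of these libraries known.

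**Figure D1:**
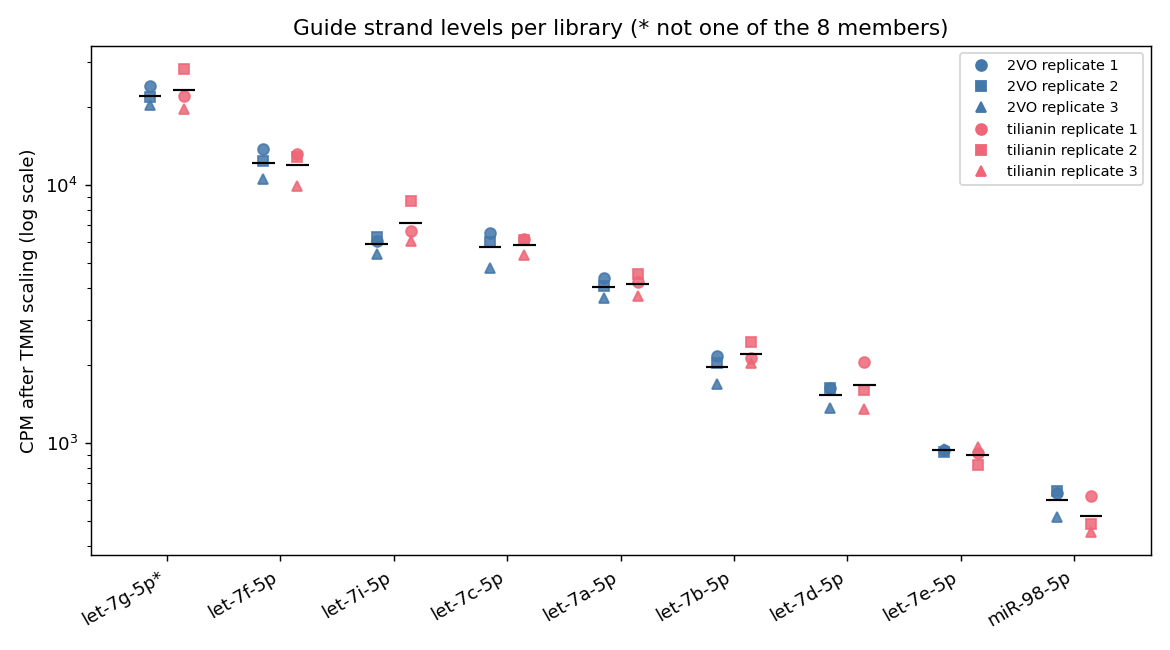
CPM after TMM scaling on a log axis for each of the 8 members and let-7g-5p (asterisk) in the 3 2VO libraries (blue) and 3 tilianin libraries (red), with the marker shape giving the replicate and the black line the group mean. The members span from 451 CPM (miR-98-5p) to 13741 CPM (let-7f-5p), and in each of the 9 miRNAs the points of the groups overlap.

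let-7f-5p was the most abundant member, and it ranked 17 among the 454 tested miRNAs by mean CPM. It was followed by let-7i-5p, let-7c-5p, let-7a-5p, let-7b-5p, let-7d-5p, let-7e-5p and miR-98-5p, the last at rank 81. let-7g-5p was above all of them, at rank 13 and 22684 CPM on average over the 6 libraries, and its counts were 1.89 ± 0.191 times those of let-7f-5p (SD, n = 6). As all guides have the same length, these levels were compared as CPM without scaling for length. How well each sequence was captured during library making was not measured. The order is therefore one of counts, and it may differ from the order of amounts in the tissue. Most steps in this order were larger than the spread over libraries. let-7f-5p was 1.88 ± 0.281 times let-7i-5p, let-7c-5p was 1.42 ± 0.0720 times let-7a-5p, and let-7a-5p was 1.96 ± 0.118 times let-7b-5p within the same library (SD, n = 6). These ratios were above 1 in 6 of 6 libraries, and the ranges of CPM over the libraries did not overlap. The same held for let-7d-5p over let-7e-5p (1.76 ± 0.325) and for let-7e-5p over miR-98-5p (1.67 ± 0.280). let-7i-5p and let-7c-5p were not separated, with ratios of 0.935 to 1.41 and let-7i-5p higher in 5 of 6 libraries. let-7b-5p was above let-7d-5p in 6 of 6 libraries, by as little as 1.03 times in tilianin replicate 1, and their CPM ranges overlapped.

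Of the 8 members, 0 passed the screening criterion of the study, an unadjusted p-value below 0.05 with an absolute log2 fold change above 1, by edgeR's quasi-likelihood test of tilianin against 2VO. The background for this count is 5.73% of all tested miRNAs (26 of 454), with 4.63% higher and 1.10% lower in the tilianin group. Without the fold change criterion the count was also 0 of 8, against 7.27% of all tested miRNAs, and it was 0 with DESeq2's Wald test and with limma-voom. Unadjusted p-values of the members ranged from 0.218 to 0.898 and Benjamini-Hochberg adjusted p-values over all tested miRNAs from 0.786 to 0.968 (edgeR). No miRNA of the table had an adjusted p-value under 0.05 by edgeR (0%), where the smallest was 0.397 and 33 had an unadjusted p-value below 0.05, whereas DESeq2's Wald test gave 3 and limma-voom 0. The 2VO and tilianin libraries overlapped in CPM for all 8 members, whereas they did not overlap for 9.69% of all tested miRNAs (5.51% higher and 4.19% lower in the tilianin group). The median log2 fold change of the members was 0.04 beside -0.03 over all tested miRNAs, with 3 of 8 members and 53.3% of all miRNAs below 0.

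The 95% intervals of the log2 fold changes bound what these libraries leave possible. For the 8 members they lay between -0.72 (lower bound of miR-98-5p) and 0.73 (upper bound of let-7i-5p), so each interval was inside the range of -1 to 1 set by the criterion. Over all tested miRNAs, 45.6% had such an interval, and 66.7% of the 162 miRNAs with a mean of at least 100 CPM did. Smaller changes remained possible, since a p-value that misses the threshold does not show equal levels. Among the 2VO libraries, the coefficient of variation of the members was 1.29% to 15.3% with a median of 11.2%, close to the median of 11.7% of the 162 miRNAs. In the tilianin libraries it was 7.81% to 21.5% with a median of 12.6%, against 24.3% for the 162 miRNAs. The 162 miRNAs include the 8 members. Tilianin replicate 2, which stood apart, is in this group, and its part in these medians was not tested.

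**Figure D2:**
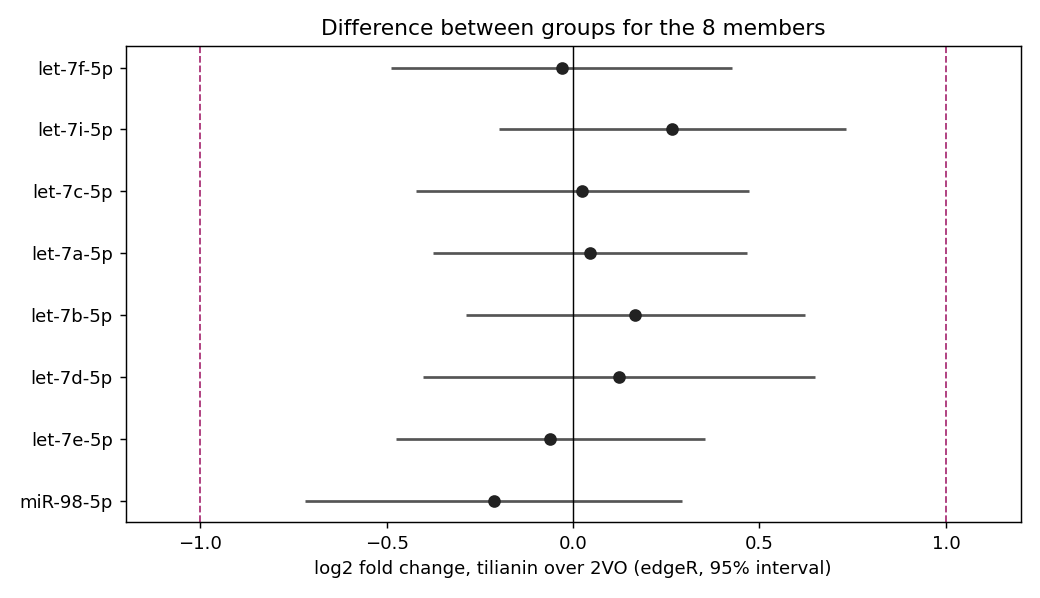
Log2 fold change of tilianin over 2VO for the 8 members (points) with the 95% interval from edgeR's quasi-likelihood test (lines), ordered by mean CPM, with dashed lines at the criterion of -1 and 1. Every interval includes 0 and lies inside the dashed lines, from -0.72 to 0.73.

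let-7i-5p had the largest difference among the members. This member is known to target the Toll-like receptor gene Tlr4. It was at 6066, 6287 and 5411 CPM in 2VO replicates 1, 2 and 3. In tilianin replicates 1, 2 and 3 it was at 6647, 8635 and 6083 CPM. Tilianin replicate 2 was the highest library and tilianin replicate 3 lay within the 2VO range. It averaged 5921 ± 456 and 7122 ± 1340 CPM (SD, n = 3 each). The log2 fold change was 0.27 (standard error 0.197, 95% interval -0.20 to 0.73), with an adjusted p of 0.786 by edgeR. With each library left out in turn it was 0.12 to 0.36, and the lowest value was that without tilianin replicate 2. Hence it stayed positive in these fits and under every other alternative, and the test was passed in none.

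miR-98-5p, the least abundant member, differed most in the other direction. It was at 638, 651 and 516 CPM in 2VO replicates 1, 2 and 3. In tilianin replicates 1, 2 and 3 it was at 623, 484 and 451 CPM. Tilianin replicates 2 and 3 were below all 2VO libraries, whereas tilianin replicate 1 was within their range. It averaged 602 ± 74.4 and 519 ± 91.1 CPM (SD, n = 3 each). The log2 fold change of miR-98-5p was -0.21 (standard error 0.215, 95% interval -0.72 to 0.29) with an adjusted p of 0.835 by edgeR, and it was negative under every alternative, from -0.35 to -0.12. let-7f-5p, which shares a locus with miR-98-5p on chromosome X and another with let-7a and let-7d on chromosome 17, was at 13741, 12317 and 10533 CPM in 2VO replicates 1, 2 and 3. In the tilianin replicates it was at 13171, 12787 and 9860 CPM. This member is known to target insulin-like growth factor 1 messages. Its groups had nearly the same level, with means of 12197 ± 1607 and 11939 ± 1811 CPM (SD, n = 3 each) and a log2 fold change of -0.03 (standard error 0.194), whose sign changed when 2VO replicate 1 (0.06), 2VO replicate 2 (0.0088) or tilianin replicate 3 (0.08) was left out.

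The other members of the chromosome 17 cluster were let-7a-5p and let-7d-5p. let-7a-5p has the same sequence in worms, flies and mammals. It was at 4352, 4070 and 3628 CPM in 2VO replicates 1, 2 and 3 and at 4196, 4525 and 3717 CPM in the tilianin replicates. The spread within each group exceeded the difference of the means, 4017 ± 365 and 4146 ± 406 CPM (SD, n = 3 each), and the log2 fold change was 0.05 (standard error 0.179), or -0.03 with library totals. let-7d-5p, the member with the change U1A at the 5′ end, was at 1625, 1629 and 1362 CPM in the 2VO replicates. In the tilianin replicates it was at 2066, 1604 and 1355 CPM. Tilianin replicate 1 was above every other library and the remaining 5 were within 1355 to 1629 CPM. The log2 fold change of let-7d-5p was 0.12 (standard error 0.223), but -0.04 without tilianin replicate 1.

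let-7c-5p and let-7b-5p share the chromosome 7 locus. let-7b-5p is known for promoting the differentiation of neural stem cells and for activating Toll-like receptor 7 when released outside cells. It was at 2173, 2044 and 1699 CPM in 2VO replicates 1, 2 and 3. In the tilianin replicates it was at 2128, 2468 and 2045 CPM. The 2VO replicate 3 was the lowest library and tilianin replicate 2 the highest, and the log2 fold change was 0.17 (standard error 0.193). It was 0.06 without 2VO replicate 3 and 0.09 without tilianin replicate 2. let-7c-5p was at 6489, 6018 and 4777 CPM in the 2VO replicates and at 6141, 6113 and 5334 CPM in the tilianin replicates. The tilianin values all fell inside the 2VO range, with a log2 fold change of 0.03 (standard error 0.189), or -0.04 with library totals.

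let-7e-5p varied least of the members within the 2VO group, whereas let-7c-5p did within the tilianin group (coefficients of variation of 7.81% for let-7c-5p and 8.07% for let-7e-5p). It was at 937, 926 and 950 CPM in 2VO replicates 1, 2 and 3, a coefficient of variation of 1.29%. In tilianin replicates 1, 2 and 3 it was at 911, 821 and 964 CPM. The tilianin values lay on both sides of the 2VO values, and tilianin replicate 2 was the lowest. The log2 fold change of let-7e-5p was -0.06 (standard error 0.176), but 0.02 without tilianin replicate 2. let-7g-5p, outside the 8 members, was at 24111, 21846 and 20324 CPM in the 2VO replicates and at 22107, 28071 and 19642 CPM in the tilianin replicates. For let-7g-5p the log2 fold change was 0.08 (standard error 0.187), which was -0.07 without tilianin replicate 2.

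No single library was the highest or the lowest for all 8 members. Tilianin replicate 2, which stood apart in the other miRNAs, had the highest level of 3 members (let-7a-5p, let-7b-5p and let-7i-5p) and the lowest of 1 (let-7e-5p). 2VO replicate 3 had the lowest level of 4 members, and tilianin replicate 3 of 3 members. The family sum was also lowest in 2VO replicate 3 (28877 CPM), whereas let-7e-5p had its highest 2VO value there (950 CPM). Without tilianin replicate 2, 0 of 8 members passed the criterion or had an unadjusted p-value below 0.05 by edgeR's quasi-likelihood test.

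**Figure D3:**
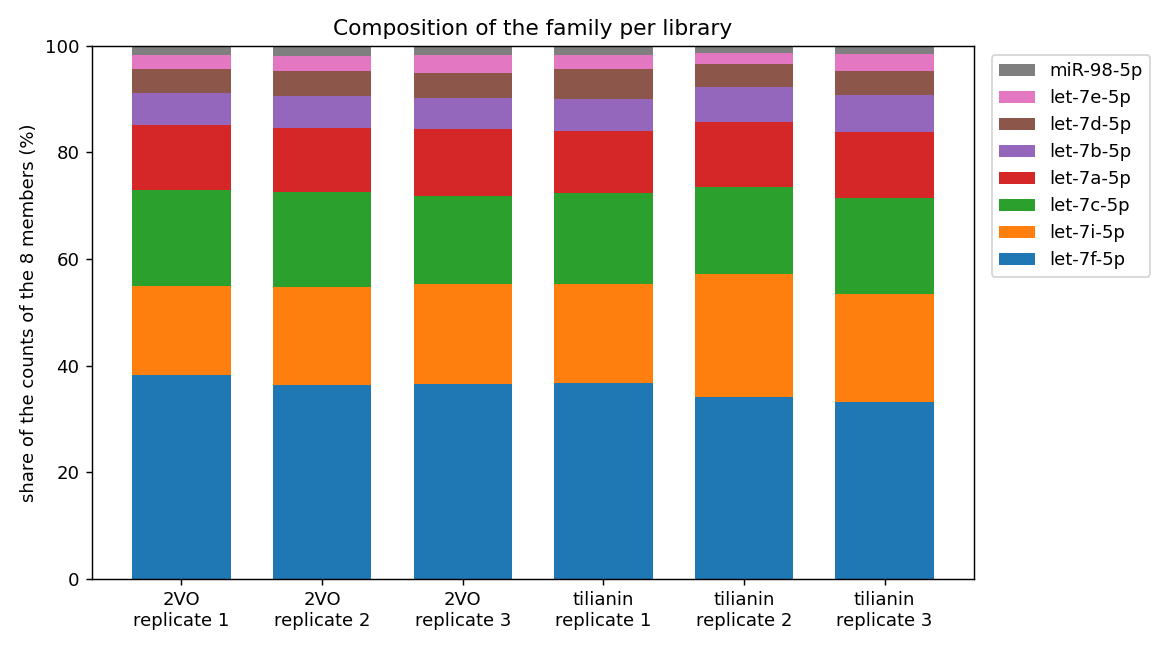
Share of each member in the summed counts of the 8 members (vertical axis, %) for each library, stacked in order of mean level from let-7f-5p at the bottom. let-7f-5p takes 33.1% to 38.1% and let-7i-5p 16.8% to 23.1% over the 6 libraries. The order of the stack is fixed and does not show the order within a library.

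The composition of the family, which does not depend on library size scaling, was described by the share of each member in the counts of all 8. let-7f-5p held 37.0 ± 1.02% in the 2VO group and 34.6 ± 1.86% in the tilianin group (SD, n = 3 each). let-7i-5p took 16.8%, 18.5% and 18.7% of the counts in the 2VO libraries, against 18.5%, 23.1% and 20.4% in the tilianin libraries. let-7c-5p held 17.4 ± 0.780% and 17.1 ± 0.783%, and let-7a-5p 12.2 ± 0.307% and 12.1 ± 0.388%. These 4 members made up most of the counts of the 8 in every library. let-7b-5p held 5.98 ± 0.0827% and 6.46 ± 0.479%, let-7d-5p 4.68 ± 0.148% and 4.86 ± 0.786%, let-7e-5p 2.87 ± 0.367% and 2.66 ± 0.530%, and miR-98-5p 1.83 ± 0.0808% and 1.51 ± 0.221%. The largest differences were 2.63 percentage points more for let-7i-5p and 2.33 points less for let-7f-5p in the tilianin group. They had p = 0.2 and p = 0.3 by two-sided exact permutation tests, each with an adjusted p of 0.6 over the 8 shares. In tilianin replicate 2, let-7i-5p took 23.1% and let-7f-5p 34.2%. Leaving out each library in turn gave differences of 1.43 to 3.70 points for let-7i-5p and of -3.36 to -1.54 points for let-7f-5p.

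The share of miR-98-5p was the only one of the 8 whose groups did not overlap. It was 1.77%, 1.92% and 1.79% in 2VO replicates 1, 2 and 3. In tilianin replicates 1, 2 and 3 it was 1.74%, 1.29% and 1.51%. The gap between the groups was narrow, from 1.74% to 1.77%, with p = 0.1 by a two-sided exact permutation test, the smallest possible with 3 libraries against 3, or an adjusted p of 0.6 over the 8 shares. When let-7g-5p was counted in the family, its groups overlapped. With let-7g-5p, the groups of let-7b-5p (3.45% to 3.66% against 3.67% to 4.14%) and of let-7i-5p (10.1% to 11.3% against 11.5% to 13.2%) did not overlap instead, each with p = 0.1 and an adjusted p of 0.45 by exact permutation tests. let-7g-5p itself then held 40.2 ± 1.08% and 40.2 ± 2.41%.

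Ratios between members that share a locus were also compared within each library. The let-7b-5p count was 0.343 ± 0.0109 of the let-7c-5p count in the 2VO group and 0.378 ± 0.0290 in the tilianin group. let-7d-5p was 0.127 ± 0.00736 and 0.140 ± 0.0159 of let-7f-5p, and let-7a-5p was 0.331 ± 0.0139 and 0.350 ± 0.0294 of it. miR-98-5p was 0.0494 ± 0.00324 of let-7f-5p in the 2VO group and 0.0436 ± 0.00506 in the tilianin group (SD, n = 3 each throughout). All 4 ratios overlapped between the groups, with p = 0.2 to p = 0.4 by two-sided exact permutation tests and adjusted p-values of 0.375 to 0.4 over the 5 ratios tested, the other being let-7i-5p over let-7f-5p (p = 0.3). let-7a-5p, let-7c-5p and let-7f-5p also come from other loci, so their part in these ratios is not specific to one cluster.

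The passenger strands of the same hairpins were present at a small part of the guide level. Counting the identical rows of let-7a-1-3p and let-7c-2-3p once, they summed to 1.78 ± 0.124% of the 8 guide strands in the 2VO group and 1.71 ± 0.167% in the tilianin group (SD, n = 3 each), and 0 of the 11 listed passed the criterion by edgeR's quasi-likelihood test. The groups did not overlap for 2 of the 11, both lower with tilianin, where the background is 9.69% of all tested miRNAs in either direction and 4.19% in this one. They were let-7c-1-3p (7.12 to 7.64 CPM in 2VO, 5.49 to 6.41 CPM in tilianin) and let-7f-2-3p (59.3 to 67.3 and 44.5 to 53.7 CPM), with log2 fold changes of -0.33 (adjusted p = 0.746) and -0.35 (adjusted p = 0.708) by edgeR. For the members with a single hairpin, let-7d-3p was at 8.54% to 13.7% of let-7d-5p, whereas let-7i-3p was at 0.0703% to 0.108% of let-7i-5p. In RefSeq, the genes of miR-3596a, miR-3596b and miR-3596c lie within 10 kb of let-7 genes, and that of miR-3596d does not. These miRNAs, miR-3596d included, had at most 26 counts in any library, against at least 3142 counts for each member.

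The 5 listed cluster partners, of the miR-99/100 and miR-125 families, had more counts than every member in each library. One of them, miR-125b-5p, has no gene within 10 kb of the let-7 loci above. Of the 5, 0 passed the criterion or had an unadjusted p-value below 0.05 by edgeR's quasi-likelihood test. Over all tested miRNAs, 5.73% passed the criterion and 7.27% had such a p-value. In the let-7e cluster on chromosome 1, tilianin replicate 2 had the highest miR-99b-5p of the 6 libraries (56121 CPM, against 30014 to 37637 CPM in the others), but the lowest let-7e-5p and the lowest miR-125a-5p (31436 CPM, against 38075 to 60149 CPM). Thus the library that stood apart was high in 1 and low in 2 of the miRNAs of this cluster. miR-100-5p and miR-99a-5p, beside let-7a-2 and let-7c-1, were also highest in it, at 61835 and 318045 CPM. In the same library let-7a-5p was the highest of the 6 and let-7c-5p was within the range of the others.

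Finally, the miRNAs whose levels over the 6 libraries were most like the family sum were listed among the 154 other miRNAs with a mean of at least 100 CPM, by the mean absolute difference of log2 CPM (0.5 CPM added) after each mean was subtracted. The closest were miR-101a-3p (0.0606), miR-16-5p (0.0615), miR-185-5p (0.0721), let-7g-5p (0.0746) and miR-31a-5p (0.0873). let-7g-5p thus had rank 4 by this measure. As the family sum varied little, a small difference also describes miRNAs that hardly varied. miR-101a-3p was at 1436, 1324 and 1204 CPM in the 2VO replicates and at 1360, 1380 and 1257 CPM in the tilianin replicates.

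**Figure D4:**
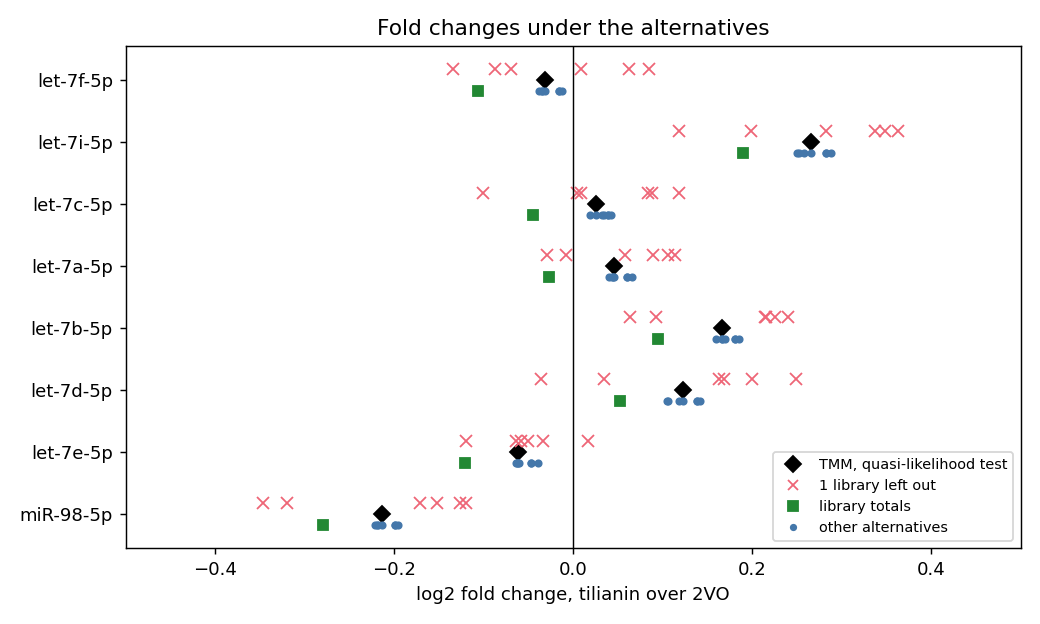
Log2 fold change of tilianin over 2VO for each member from edgeR's quasi-likelihood test with TMM scaling (black diamonds), with 1 library left out in turn (red crosses), with library totals (green squares) and under the other alternatives (blue points). All values lie between -0.35 (miR-98-5p) and 0.36 (let-7i-5p), and the points of let-7b-5p, let-7i-5p and miR-98-5p alone stay on one side of 0.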

How the data were processed

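Small RNA libraries were made with a TruSeq kit from brain RNA. The authors deposited raw read counts per mature miRNA, 1 column per library, without normalization. Their notes name FastQC 0.11.2, Trimmomatic 0.36, cutadapt 1.14 and DESeq2 1.12.4. The aligner, miRNA reference, genome build and counting program are not given in the sources used here. Columns were matched to samples by library code (2VO replicate 3 has number 4).

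Counts were scaled with TMM after dropping miRNAs under 10 counts over the 6 libraries, and group was the only term of edgeR's quasi-likelihood test. R 4.3.3 was used with DESeq2 1.42.0, limma 3.58.1 and edgeR 4.0.16. P-values were adjusted over all 454 miRNAs by the Benjamini-Hochberg method. The thresholds of the criterion are those of the study. Standard errors are approximate (the log2 change divided by the root of F), and the 95% intervals follow from them. Shares (8 of the members, and 9 with let-7g-5p added) and 5 ratios were compared by two-sided exact permutation tests (smallest possible p 0.1), adjusted within each of these sets. The code was tested on simulated counts.

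The members, marker lists and tests were chosen with earlier results of these data known. Named miRNAs are the members, their passenger strands and cluster partners, miRNAs with the same seed, and the 5 most like the family sum. Markers named were chosen after their values were seen. Sequences and positions are from RefSeq (GRCr8), and all 8 members matched.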

Additional observations from a re-analysis of the deposited data

How the results depend on the processing

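Under 14 alternatives, 0 of 8 members passed the criterion or had an unadjusted p-value below 0.05 (edgeR, DESeq2 or limma-voom). The family sum differed by -0.0382 to 0.155 (log2) with each library left out. With library totals, the log2 fold change was -0.0268 for let-7a-5p, -0.0445 for let-7c-5p and -0.0043 for let-7g-5p, each reversed. With each library left out, the sign also reversed for let-7a-5p (-0.0296 to 0.11), let-7c-5p (-0.10 to 0.12), let-7d-5p (-0.0359 to 0.25), let-7e-5p (-0.12 to 0.0162), let-7f-5p (-0.13 to 0.0846) and let-7g-5p (-0.0680 to 0.18). Over all miRNAs, where 21 were higher and 5 lower at the criterion, 6 were higher with limma-voom and 9 with the replicate block, and 8 were lower with library totals, 2 with filterByExpr, 3 with DESeq2's Wald test and 3 with limma-voom. DESeq2's Wald test gave 3 miRNAs with an adjusted p under 0.05. With each library left out, 7 to 29 were higher (8, 7, 9 and 9 without 2VO replicates 1, 2 and 3 and tilianin replicate 2), 2 to 5 lower (2 without 2VO replicate 2), and 0 to 4 had an adjusted p under 0.05 (edgeR; 1 without tilianin replicate 1, 4 without tilianin replicate 2). The cause was not tested. Correlations of deviations between same-numbered libraries were -0.121, 0.00917 and 0.297 for replicates 1, 2 and 3. Differently numbered libraries were not compared in this way, so these values do not settle whether the numbers mark pairs. The replicate block gave 0 members past the criterion. The sum and the shares with let-7g-5p were added after seeing the data.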
